A study of Hippophae rhamnoides with 3 samples.

Results

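Seabuckthorn genes that carried tags at 2 or more sites in the sense direction are described here, with the question whether the use of these sites differed between leaf libraries made at normal, cold and freezing temperature. A gene was taken when a tag table listed at least 2 sense tags that matched it and no other gene. There were 290 such genes of 3695 with a listed sense tag in control against cold stress (7.85%), 296 of 3998 in control against freeze stress (7.40%) and 294 of 3958 in cold against freeze stress (7.43%). Over the 3 tables they were 647 of 7249 genes, of which 426 belonged to 1 table, 209 to 2 and 12 to all 3. Expression was measured by DeepSAGE in leaves of Hippophae rhamnoides plantlets 30 days old, at 28°C (control, CON), after 6 hr at 4°C (cold stress, CS) or after 6 hr at -10°C (freeze stress, FS). Each condition had 1 library, so the tests below compare libraries and not conditions, and the sources used here do not say how many plants went into one. The libraries held 11566368, 12010034 and 11908554 clean tags, as their counts and TPM values imply. The tables list only tags past the authors' threshold for a difference between 2 libraries.

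DeepSAGE counts short tags in place of whole transcripts. cDNA held on oligo(dT) beads is cut by NlaIII at CATG, and the bases next to the cut that remains closest to the beads are read. A transcript cut to completion therefore gives 1 tag, from its last CATG before the poly(A) tail, and transcripts of a gene that end at different places can give tags from different sites. Plants use alternative poly(A) sites widely, mostly in the stretch after the stop codon and also within introns and coding parts. In chloroplasts, in contrast to the nucleus, a poly(A) tail is known as a mark that leads RNA to decay. A more 5′ tag also arises where a cut is missed or where priming starts at an inner run of A. The files number the sites of a gene from its 3′ end, so site 1 is the most 3′.

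Tags of 8 genes are shown, since the results turn on them. Each is 21 bases long, 5′ to 3′, with every CATG in capitals. In the first 3 genes the tags share no bases, and in the next 5 the tag of site 2 runs into site 1, so that its second CATG is that of site 1.
Unigene27359_All (ribulose bisphosphate carboxylase small chain 1B) site 1: CATGcatttccaattaatttt
Unigene27359_All site 3: CATGtggaaattgcctatgtt
Unigene186_All (photosystem I apoprotein A1) site 7: CATGctcaattatctattaac
Unigene186_All site 13: CATGgctaagcgatcctactc
Unigene1952_All (NAC-like protein 1) site 1: CATGgtcttcttcattcttac
Unigene1952_All site 2: CATGaaattgaagaacacagg
Unigene115843_All (predicted protein) site 1: CATGagtaatgagattatgaa
Unigene115843_All site 2: CATGCATGagtaatgagatta
Unigene51040_All (methyl binding domain protein) site 1: CATGgcatttgagaaaaagag
Unigene51040_All site 2: CATGgtCATGgcatttgagaa
Unigene34379_All (protein phosphatase 2C) site 1: CATGacgctaatgtatccagc
Unigene34379_All site 2: CATGttCATGacgctaatgta
Unigene54650_All (bZIP transcription factor) site 1: CATGaaactatcaacactgtt
Unigene54650_All site 2: CATGggttCATGaaactatca
Unigene106461_All (no hit) site 1: CATGtttttgtttcttagttt
Unigene106461_All site 2: CATGtgctcCATGtttttgtt

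Most of these genes had exactly 2 listed sites, namely 250 genes in CON vs CS and 263 in each comparison with FS. Counts given 3 at a time below follow the order CON vs CS, then CON vs FS, then CS vs FS. The highest numbers were 9, 7 and 4 sites. For each gene the 2 sites with the most tags over both libraries were compared, of those listed in that comparison, so a deeper site that did not pass the listing stayed out. This pair included site 1 in 232, 225 and 239 genes. The more 3′ site of the pair took a median of 64.6% of the tags in CON and 62.8% in CS, 61.2% in CON and 65.3% in FS, and 67.6% in CS and 65.6% in FS. Over the 3 comparisons the median thus moved by a few points, in no common direction, while single genes moved by up to 83.4 points.

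The use of sites differed between CON and CS in 27 of 290 genes (9.31%), between CON and FS in 91 of 296 (30.7%) and between CS and FS in 93 of 294 (31.6%). A gene was called when the odds of the more 3′ site changed at least 2-fold (a log2 odds ratio of at least 1 in size) with an adjusted p of at most 0.001 by Fisher's exact test, 2-sided, Benjamini-Hochberg adjusted over both strands. The background over all genes with 2 or more listed sites on either strand was 8.38%, 29.8% and 30.6%, and among antisense tags alone 19 of 259 (7.34%), 73 of 255 (28.6%) and 69 of 235 (29.4%). The share of sense genes called therefore lay near that of antisense genes in each comparison, and both were lower in the comparison without the FS library. That difference between comparisons was not tested, as they share libraries. Genes with 1 site listed as higher and another as lower supplied 13, 69 and 64 of the calls, and the listing itself sets their difference. Among genes whose sites all moved the same way 14 of 277, 22 of 221 and 29 of 230 were called, beside 5.27%, 9.29% and 11.6% of such genes over both strands. At an unadjusted p under 0.05 there were 95, 151 and 153 sense genes. The spread between plants was not measured: with an assumed coefficient of variation of 0.2 for each tag 6, 66 and 55 genes would be called, and with 0.4, 0, 5 and 5.

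**Figure D1:**
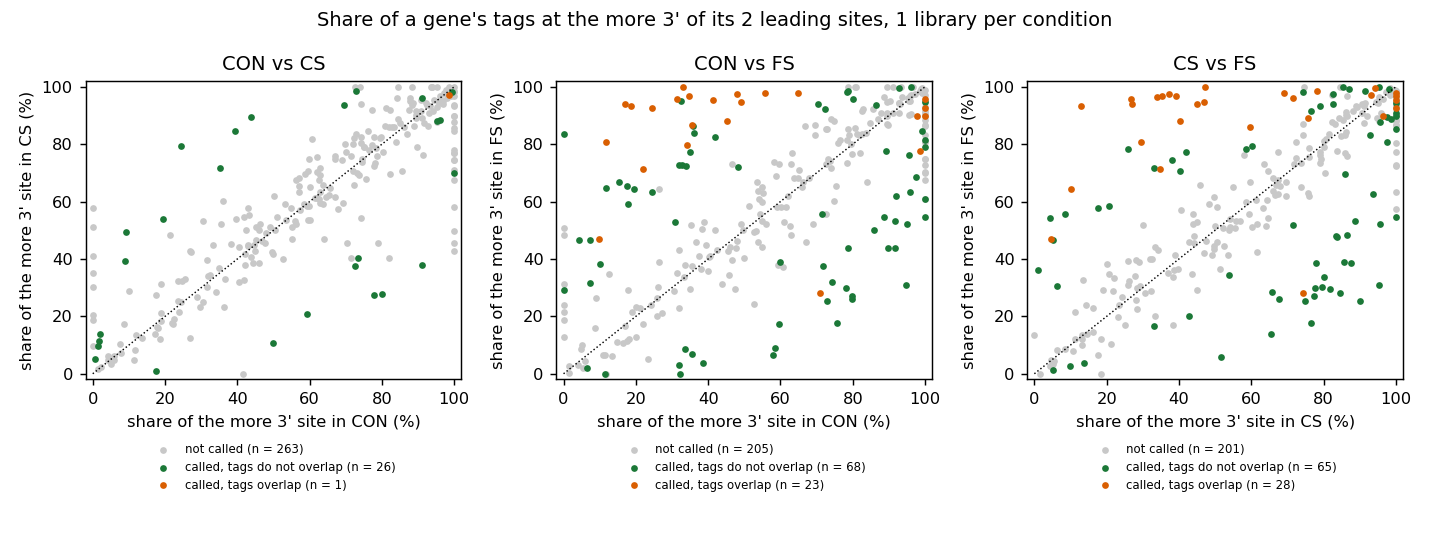
Share of a gene's tags at the more 3′ of its 2 leading sense sites (%), with the first library on the x axis and the second on the y axis; each point is 1 gene and the dotted line marks equal shares. Most grey points (not called) lie along the line, and the called genes with overlapping tags (orange) gather at the top of both FS panels.

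The called genes were split about evenly between the directions, although overlapping and other pairs, set apart below, were not alike in this. The more 3′ site gained share in 14 of 27 called genes in CS against CON (51.9%, exact 95% binomial interval 31.9 to 71.3%), in 47 of 91 in FS against CON (51.6%, 40.9 to 62.3%) and in 46 of 93 in FS against CS (49.5%, 38.9 to 60.0%), where the intervals cover counting error only. Over both strands the background was 3.46%, 15.2% and 15.3% of genes moving to the more 3′ site and 4.92%, 14.5% and 15.3% to the more 5′ site. In this background antisense pairs were counted in the direction of the gene, which is the reverse of their own. Along their own strand, antisense calls in CON vs CS went to the more 3′ site in 14 genes and to the more 5′ site in 5. In CS vs FS pairs whose tags do not overlap went to the more 3′ site in 24 genes and to the more 5′ site in 41, and overlapping pairs in 22 and 6. In CON vs FS the counts were 30 and 38, and 17 and 6. Antisense pairs without overlap, counted along their own strand, went the same way, with 17 and 32 in CS vs FS and 15 and 31 in CON vs FS. The site with most tags changed place with the other in 11, 48 and 45 of the called genes. The median size of the log2 odds ratio was 2.79, 3.20 and 3.15 among called genes, against 0.52, 1.01 and 0.78 over all members.

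In some genes 1 site rose while the other fell. This held for 13 of 290 genes in CON vs CS (4.48%), 75 of 296 in CON vs FS (25.3%) and 64 of 294 in CS vs FS (21.8%), beside a background over both strands of 3.28%, 23.8% and 21.7%. Since a tag is listed only past a 2-fold difference, 2 listed tags that move in opposite directions have a log2 odds ratio over 2 in size by construction. Their values are therefore a description of the listed tags, and no p is given for such a gene below. The gene tables, which sum the tags of a gene, listed 5 of these 13 genes, 20 of 75 and 23 of 64. Of the genes whose sites all moved the same way they listed 261 of 277, 186 of 221 and 215 of 230, and of genes with exactly 1 listed sense tag 84.4%, 79.3% and 79.8%. Thus most genes with opposed sites were listed by tag and not by gene.

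The distance between the 2 sites set the FS library apart. Where sites lie close together the tag of the upstream site runs into the downstream site, and the distance can be read from the tags themselves. The overlapping sense pairs found here lay 4 to 12 bases apart. In CON vs FS 23 of 33 such genes were called (69.7%, exact 95% interval 51.3 to 84.4%), against 68 of 263 whose tags did not overlap (25.9%, 20.7 to 31.6%). In CS vs FS the counts were 28 of 41 (68.3%, 51.9 to 81.9%) and 65 of 253 (25.7%, 20.4 to 31.5%). In CON vs CS they were 1 of 9 and 26 of 281 (9.25%). Antisense pairs gave 27 of 39 overlapping and 46 of 216 other genes in CON vs FS, 20 of 33 and 49 of 202 in CS vs FS, and 0 of 8 and 19 of 251 in CON vs CS. Among genes whose sites all moved the same way, 5 of 15 overlapping and 17 of 206 other sense pairs were called in CON vs FS, 8 of 21 and 21 of 209 in CS vs FS, and 1 of 9 and 13 of 268 in CON vs CS. This division by distance was made after the sequences and their values had been seen, so no test is given.

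**Figure D2:**
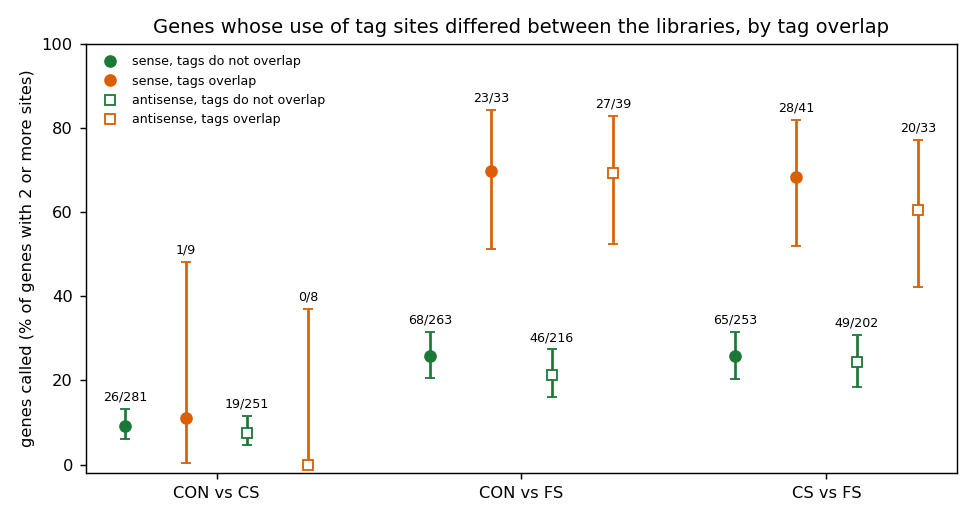
Percent of genes with 2 or more listed sites that were called, by comparison, strand (filled circles sense, open squares antisense) and overlap of the 2 tags; bars are exact 95% binomial intervals, which cover counting error only, and the numbers are genes called of genes tested. Overlapping pairs reach 60.6 to 69.7% in both comparisons with FS, on either strand, and non-overlapping pairs 21.3 to 25.9%.

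Among overlapping pairs the direction went with the distance. With 4 to 6 bases between the sites, 16 of 17 sense genes in CON vs FS and all 19 in CS vs FS were called, each with a gain of the more 3′ site in FS. Most of these genes had opposed sites, so the listing set the size of their difference and only the direction is described here. Of all overlapping sense pairs 18 of 33 in CON vs FS and 20 of 41 in CS vs FS were opposed. The exception in CON vs FS was Unigene94906_All, with sites 5 bases apart, where site 1 had 745 tags in CON and 6203 in FS and site 2 had 8 and 39 (log2 odds ratio 0.77, exact adjusted p = 0.26). With 7 bases or more, 6 genes gained the more 5′ site in FS against CON, 1 the more 3′ site and 9 were not called. In FS against CS 6 genes gained the more 5′ site, 3 the more 3′ site and 13 were not called. Some gains of the more 5′ site were at sites with 0 tags in the other library, which were listed through FS. These were Unigene11057_All, Unigene30135_All and Unigene4350_All against CON. Against CS they were Unigene30135_All, Unigene50218_All, Unigene873_All and Unigene92827_All. In CON vs CS none of the 6 sense pairs at 4 to 6 bases was called. Counted along their own strand, antisense pairs at 4 to 6 bases gained the more 3′ site in FS in 19 of 22 genes against CON and 15 of 18 against CS, with 1 and 0 genes called the other way.

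**Figure D3:**
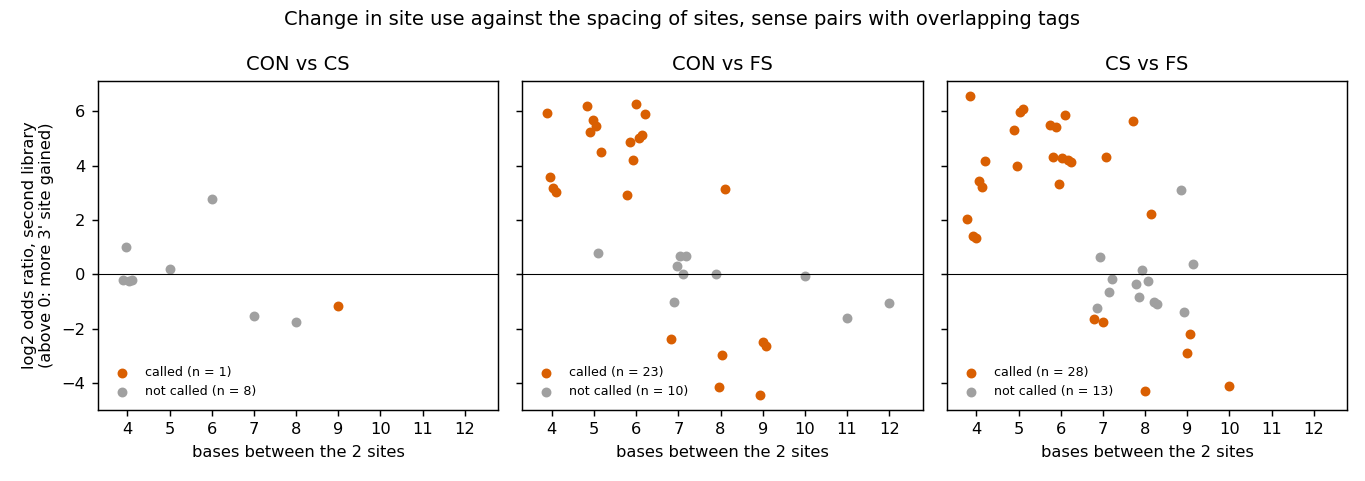
Log2 odds ratio of each sense pair with overlapping tags (y axis; above 0 the second library holds relatively more of the more 3′ site) against the bases between the 2 sites (x axis), with points of a distance spread sideways. In both panels with FS all called pairs at 4 to 6 bases lie above 0, and pairs at 7 bases or more lie on both sides of it. A site at 0 tags was set to 3, which can set the sign of a point.

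A count over all listed tags, with or without a gene, gave the same pattern. It includes the upstream tags of the overlapping pairs above and uses the division made after their values were seen. It is therefore not independent of those pairs. Of tags that hold a second CATG 4 to 6 bases after the first, 14 were higher and 116 lower in FS than in CON, and 14 higher and 132 lower in FS than in CS. Of tags with the second CATG 7 to 17 bases on, 103 were higher and 4 lower in FS than in CON, and 99 higher and 9 lower in FS than in CS. Tags without a second CATG were close to even, with 51.3% higher in FS than in CON and 53.0% higher in FS than in CS. In CS against CON 54 were higher and 28 lower at 4 to 6 bases, and 12 higher and 2 lower at 7 to 17. Whether the cut at neighbouring sites differed between the libraries was not tested, and results on overlapping pairs are given as such below.

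The small subunit of Rubisco, the enzyme that fixes CO2, showed a large and deeply sampled difference between CON and CS. Unigene27359_All had 5298 tags at site 1 and 1926 at site 3 in CON, 524 and 777 in CS, and 4316 and 1802 in FS. The more 3′ site thus took 73.3% of the pair in CON (exact 95% interval 72.3 to 74.4%), 40.3% in CS (37.6 to 43.0%) and 70.5% in FS (69.4 to 71.7%). For this pair CS stood apart, while CON and FS were close. Its site 2, also listed, fell as well from 216 tags in CON to 50 in CS, but was still low in FS with 51. The tag of site 2 ends in a second CATG, 17 bases after its first. The log2 odds ratio was -2.03 from CON to CS (-2.21 to -1.85, exact adjusted p = 3.81e-112) and 1.83 from CS to FS (1.65 to 2.01, exact adjusted p = 6.08e-90), where a value below 0 means that the second library used the more 5′ site more. From CON to CS all 3 sites fell, and site 1 fell further than site 3. RbcS is a family of near-identical copies in plants, and tags of copies that were merged or split during assembly cannot be told apart here.

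Other named genes differed between CON and CS without overlapping tags. The protein close to small Ras GTP-binding proteins, molecular switches of signalling and vesicle traffic (Unigene19451_All), had 179 tags at site 1 and 79 at site 3 in CON, and 562 and 38 in CS, so that 1 site rose and the other fell (log2 odds ratio 2.71, 2.07 to 3.35). Serine/threonine protein phosphatase 1 (Unigene14296_All), which removes phosphate from proteins, had 175 and 120 tags at sites 1 and 2 in CON, 13 and 49 in CS, and 31 and 51 in FS. Its site 1 took 59.3% in CON, 37.8% in FS and, by its exact 95% interval, 11.7 to 33.2% in CS. The change was called from CON to CS (log2 odds ratio -2.46, exact adjusted p = 6.51e-07) and not from CON to FS (-1.26, exact adjusted p = 0.0021). The SCL transcription factor, of the GRAS family of plant regulators (Unigene42172_All), rose at both sites, from 525 to 2123 tags at site 1 and from 22 to 282 at site 2 (log2 odds ratio -1.66, exact adjusted p = 1.40e-07). Germin-like protein 6, a cell wall protein of the cupin group (Unigene115968_All), fell from 19786 to 2504 tags at site 1 and from 128 to 47 at site 2, and its share at site 1 moved only from 99.4% to 98.2% (log2 odds ratio -1.54, exact adjusted p = 1.99e-07). An unknown protein with a larger swing, chosen after its values were seen, was Unigene22956_All, whose site 1 went from 967 to 139 tags and site 2 from 94 to 227 (log2 odds ratio -4.07, -4.52 to -3.62). Its share at site 1 fell from 91.1% to 38.0%.

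**Figure D4:**
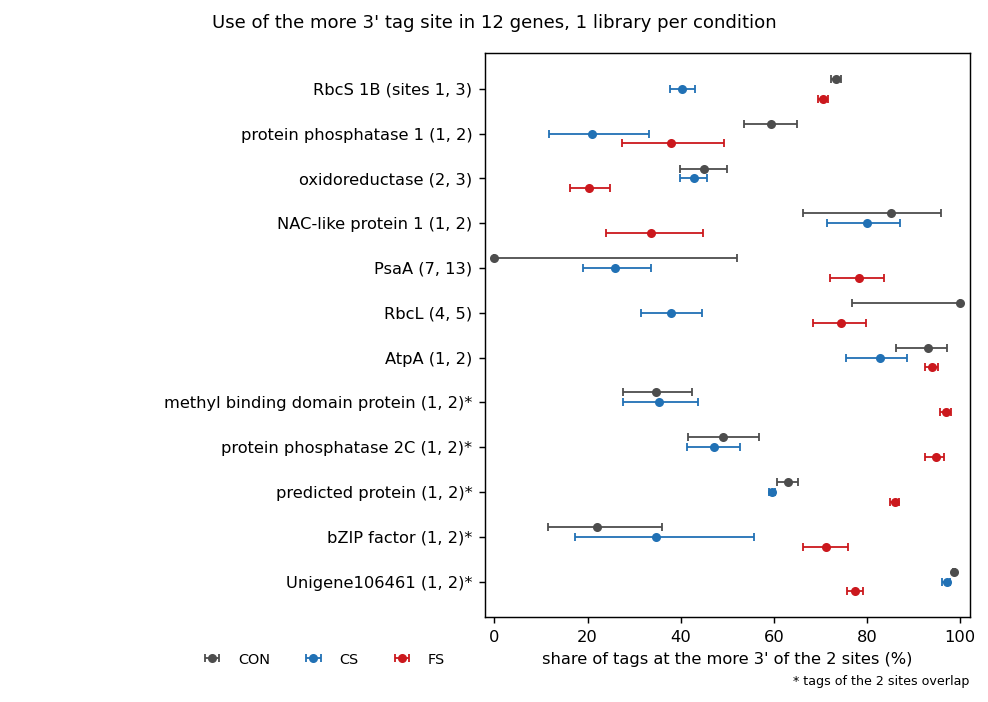
Share of tags at the more 3′ of the 2 sites (x axis, %) in the CON, CS and FS libraries for 12 genes, with the 2 sites in brackets and an asterisk where the tags overlap; bars are exact 95% binomial intervals of counting error. CS stands apart in RbcS 1B (40.3%), and FS stands apart in NAC-like protein 1 (33.7%) and in the 5 genes marked with an asterisk.

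In freezing, a few named nuclear genes differed with tags that do not overlap. NAC-like protein 1 belongs to a plant family of transcription factors with members that act in stress and ageing. It had 23 tags at site 1 and 4 at site 2 in CON, 88 and 22 in CS, and 29 and 57 in FS. Site 1 held 85.2%, 80.0% and 33.7% of the pair, so that FS was low and CON and CS overlapped within counting error. From CS to FS site 1 fell and site 2 rose (log2 odds ratio -2.97, -3.99 to -1.98), and the gene table of that comparison did not list the gene. The oxidoreductase that binds FAD and NAD (Unigene39407_All) had 177 and 217 tags at sites 2 and 3 in CON, 483 and 646 in CS, and 72 and 284 in FS. The share of the more 3′ site was 44.9%, 42.8% and 20.2% (CS to FS log2 odds ratio -1.56, exact adjusted p = 2.23e-14). A copper chaperone targeted to the chloroplast, a carrier that hands copper to other proteins (Unigene11498_All), fell at both sites from CON to FS, from 480 to 187 tags at site 1 and from 1077 to 167 at site 2. Its share at site 1 rose from 30.8% to 52.8% (log2 odds ratio 1.33, 0.98 to 1.68, exact adjusted p = 1.03e-13).

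The germin-like proteins went in different directions from CS to FS. In Unigene115968_All site 1 rose from 2504 to 14088 tags and site 2 from 47 to 117, a gain of the more 3′ site (log2 odds ratio 1.18, exact adjusted p = 3.32e-05). In Unigene92387_All site 1 rose from 1255 to 2648 and site 2 from 206 to 1163, a gain of the more 5′ site (log2 odds ratio -1.42, -1.66 to -1.18, exact adjusted p = 1.75e-35). The tags of sites 1 and 2 of this second gene differ at a single base, T21G, counted from the 5′ end of the tag, so that base alone tells the sites apart. It was the only gene here with such a pair.

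Several of the largest shifts toward the more 3′ site in FS were in genes with overlapping tags. The methyl binding domain protein, of a family that binds methylated DNA, had 58 tags at site 1 and 109 at site 2 in CON, 51 and 93 in CS, and 860 and 27 in FS, with 6 bases between the sites. Site 1 held 34.7% of the pair in CON, 35.4% in CS and as much as 97.0% in FS. The change was called against CON (log2 odds ratio 5.90, 5.15 to 6.67) and against CS (5.86). Protein phosphatase 2C, of the family that holds the brakes of abscisic acid signalling, had 86 and 89 tags in CON, 144 and 162 in CS, and 500 and 28 in FS, also 6 bases apart. Site 1 held 49.1%, 47.1% and 94.7% (FS against CON log2 odds ratio 4.21). Unigene115843_All, a predicted protein with the most tags of all called genes in CS vs FS, had 1199 tags at site 1 and 705 at site 2 in CON, 10383 and 7037 in CS, and 3732 and 612 in FS, with 4 bases between the sites. Its share at site 1 was 63.0%, 59.6% and 85.9% (CS to FS log2 odds ratio 2.05, 1.92 to 2.18, exact adjusted p = 3.49e-257). In each of these genes CON and CS lay within 4 points of each other and FS was high.

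Caffeic acid O-methyltransferase, an enzyme of lignin synthesis (Unigene30358_All), and ribosomal protein S14 (Unigene97324_All) also had sites 4 bases apart. The first had 3875 and 286 tags in CS and 1471 and 43 in FS (log2 odds ratio 1.34, exact adjusted p = 4.58e-09). In ribosomal protein S14 site 1 rose from 121 to 260 tags and site 2 fell from 48 to 11 (log2 odds ratio 3.23). Predicted proteins chosen after their values were seen moved alike: Unigene48299_All, with 5 bases between its sites, had 275 and 298 tags in CON, 136 and 230 in CS, and 3682 and 91 in FS.

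At 7 bases or more FS gained the more 5′ site in most called genes, some of them with 0 tags at that site in the other library. Unigene106461_All, which has no hit, had 6179 tags at site 1 and 83 at site 2 in CON, 1352 and 41 in CS, and 1808 and 526 in FS. Its site 2 tag, 9 bases upstream, was 1.33% of the pair in CON, 2.94% in CS and 22.5% in FS (FS against CON log2 odds ratio -4.44, -4.80 to -4.09). GrpE, a partner of Hsp70 chaperones (Unigene21724_All), had 322 and 7 tags in CON, 326 and 12 in CS, and 796 and 91 in FS (FS against CON log2 odds ratio -2.39, exact adjusted p = 1.46e-06). The carbohydrate binding protein (Unigene873_All) had 579 tags at site 1 and 0 at site 2 in CS, and 1251 and 30 in FS. Its site 2 was listed through FS, so no p is given. The bZIP transcription factor went the other way: with 8 bases between its sites, it had 11 and 39 tags in CON, 9 and 17 in CS, and 258 and 104 in FS (FS against CON log2 odds ratio 3.14, 2.07 to 4.30, exact adjusted p = 1.31e-10).

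Genes of the chloroplast genome had the most listed sites. The list of such genes, by keyword in the best hit, held 12 members in CON vs CS, all higher in CS at every listed site, 7 in CON vs FS, all higher in FS, and 4 in CS vs FS. Over all members every listed site was higher in 150 of 290 genes in CS against CON and in 96 of 296 in FS against CON. Of the chloroplast genes 1, 2 and 4 were called, beside 27 of all 290 members, 91 of 296 and 93 of 294. A pair held a 0 in 9 of the 12 genes in CON vs CS, beside 45 of all 290 members, and in 4 of the 7 in CON vs FS, beside 58 of 296. These genes were listed through the stressed library, and no median of their odds ratios is given. Tags at sites far from the 3′ end were thus found in both stressed libraries at low counts. Copies of chloroplast sequence in the nuclear genome cannot be told apart from the chloroplast genes here, and in bulk leaf neither can fewer cells of a type and less RNA per cell.

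The apoprotein A1 of photosystem I, which binds the reaction centre chlorophylls, had 9 listed sites between site 1 and site 13. In CON 7 of them had 0 tags, which allows up to 3 tags each, and the highest was 5 at site 13. In CS the counts ran from 18 at site 12 to 114 at site 4, and in FS, for the 7 sites with a listed count, from 16 at site 12 to 162 at site 7. Between CS and FS site 7 rose from 38 to 162 tags while site 13 fell from 109 to 45, and the share of site 7 in this pair went from 25.9% to 78.3% (log2 odds ratio 3.37, 2.61 to 4.13). These were the only sites of the gene listed in CS vs FS, 1 in each direction, while site 4 had 114 and 91 tags and site 5 had 42 in both libraries. The large subunit of Rubisco (Unigene43829_All) had 6 listed sites. Its site 1 had 5, 460 and 333 tags in CON, CS and FS. Site 4 had 14, 85 and 183 tags and site 5 had 0, 139 and 63, so that from CS to FS site 4 rose and site 5 fell (log2 odds ratio 2.25, 1.65 to 2.84). Its site 1, deeper than either, was not listed in that comparison. The CF1 alpha subunit of ATP synthase (Unigene16_All) was higher in FS than in CS at its 3 sites listed there, with 115 and 1117 tags at site 1, 24 and 71 at site 2 and 24 and 62 at site 3. For sites 1 and 2 the log2 odds ratio was 1.72 (exact adjusted p = 5.08e-05). Its site 4, the deepest in CS with 252 tags, was listed only in CON vs CS, and the listed sites made up 73.6% of the gene's tags in CS vs FS.

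**Figure D5:**
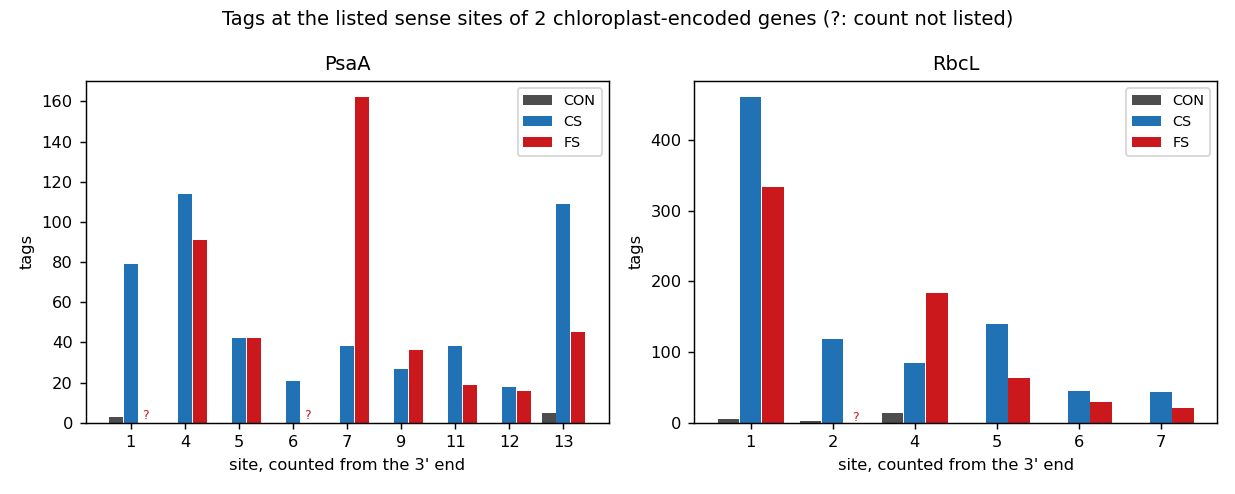
Tags (y axis) at each listed sense site (x axis, counted from the 3′ end; sites with no listed tag are left out) of the apoprotein A1 of photosystem I (PsaA) and the large subunit of Rubisco (RbcL) in the 3 libraries; a question mark stands for a count that the tables do not list. CON has at most 5 tags at any site of PsaA and 14 of RbcL, and FS is above CS at site 7 of PsaA (162 against 38) and site 4 of RbcL (183 against 85).

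The NADH dehydrogenase 2-like reading frame (Unigene32617_All) is by its name a subunit of a complex that passes electrons from NADH. In CON vs CS it was the gene of the chloroplast list that was called. Its name gives no genome, nor do those of ribosomal proteins S14 and S18. Unigene32617_All had 42 tags at site 3 and 0 at site 4 in CON, 98 and 42 in CS, and 140 and 90 in FS. With 3 tags in place of the 0, the log2 odds ratio was -2.58 in CS and -3.17 in FS, toward the more 5′ site. Site 4 was listed through the stressed libraries, so no p is given. Ribosomal protein S18 (Unigene38965_All) moved the same way from CON to FS, with 26 tags at site 1 and 7 at site 3 in CON, and 118 and 152 in FS (log2 odds ratio -2.26, exact adjusted p = 0.00053). Its change from CON to CS had a similar size, with 111 and 132 tags in CS (-2.14, exact adjusted p = 0.0028), and was not called. All 4 calls of the list in CS vs FS went to the more 3′ site, beside 46 of the 93 calls over all members. Of the 4 genes 3 had opposed sites, whose difference the listing sets, and 1 of them, ribosomal protein S14, has overlapping tags. The keywords missed genes of the chloroplast genome, and these were looked up after their values were seen. Maturase K (Unigene21671_All), a splicing factor of chloroplast introns, had 0 tags at site 1 and 11 at site 6 in CON, and 231 and 46 in FS. With 3 tags in place of the 0, the log2 odds ratio was 4.20, toward the more 3′ site. This direction rests on the 11 tags of site 6 in CON. Sites 2, 3 and 7 of the gene also rose from 0 tags in CON, to 22, 18 and 54 in FS. Site 1 was listed through FS, so no p is given. The reading frame PhapfoPp091 (Unigene13445_All), annotated to the plastid, had 451 tags at site 3 and 12 at site 4 in CS, and 178 and 42 in FS, a shift to the more 5′ site with opposed sites (log2 odds ratio -3.15, -4.24 to -2.15).

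The other keyword lists were small. Transcription factors had 5, 4 and 2 members with 1, 1 and 2 called, and kinases and phosphatases 4, 5 and 2 with 1 called in each. Nuclear photosynthesis genes had 4, 0 and 2 members, with RbcS 1B called in the first and the last. The list of heat shock proteins and chaperones held 1, 1 and 2 members, and its 1 call, in CON vs FS, was the copper chaperone, which is not a heat shock protein. GrpE, the Hsp70 partner described above, was missed by its keywords and was called in CON vs FS (log2 odds ratio -2.39) and CS vs FS (-1.63), with overlapping tags. No member was called among the lists of ubiquitin (1, 0 and 1 members), RNA processing (0, 1 and 1), ribosome and translation (0, 1 and 0), membrane transport (5, 0 and 3), clock and light (0, 0 and 1) and cell wall (1, 0 and 1), and the list of cold-protective and sugar genes had no member. These shares cannot be set apart from the background, given the few members.

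Some deeply sampled genes were not called while their level changed. A chlorophyll a/b binding protein of the light-harvesting antenna (Unigene48572_All) fell from 17955 to 6879 tags at site 1 and from 1274 to 490 at site 2 between CON and CS, with 93.4% of the pair at site 1 in both (log2 odds ratio -0.01, interval -0.16 to 0.15). A heat shock protein (Unigene18923_All) rose at both sites, from 264 to 1004 tags at site 1 and from 345 to 806 at site 2, so that site 1 became the deeper. Its change in use (log2 odds ratio 0.70, 0.43 to 0.98, exact adjusted p = 3.35e-06) was past the p limit and under the 2-fold limit. Predicted protein Unigene2050_All fell from 12882 to 4524 tags at site 1 and from 189 to 67 at site 2 between CON and FS (log2 odds ratio -0.01, -0.43 to 0.41).

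Listed antisense tags were counted beside opposed sites and beside the rest. Of genes with opposed sites 3 of 13 in CON vs CS, 11 of 75 in CON vs FS (14.7%, exact 95% interval 7.56 to 24.7%) and 10 of 64 in CS vs FS (15.6%, 7.76 to 26.9%) had a listed antisense tag. Of genes with all sites in the same direction 131 of 277, 63 of 221 (28.5%, 22.7 to 34.9%) and 81 of 230 (35.2%, 29.1 to 41.8%) had one. The intervals overlap in CON vs FS, and the difference was not tested. In called pairs without overlap the site gained in CS against CON was richer in G and C than the site lost, by a mean of 7.69 points over 26 genes and in 17 of them. Over all listed tags G and C made up 34.8% of the bases after CATG in tags higher in CS and 31.6% in those higher in CON. In CON vs FS and CS vs FS the mean difference was 0.87 and -1.54 points.

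Leaf markers were present, as 6 genes of the leaf list were listed, with up to 22282 tags. The antenna protein Unigene48572_All had 22282 tags in CON and 8634 in CS, RbcS (Unigene27359_All) had 7492, 1353 and 6206 in CON, CS and FS, and another antenna protein (Unigene96011_All) had 49, 435 and 56. Genes named for pollen (4 listed, with sums of 510, 3443 and 2101 tags in CON, CS and FS), root nodules (3 genes, 73, 475 and 216) and seed storage (2 genes, 278, 692 and 234) had their highest sums in CS. Single genes differed from these sums: the pollen allergen Unigene61801_All had 66, 2093 and 473 tags, while Unigene76069_All had 405, 1204 and 1579 and the nodulin Unigene34711_All 24, 20 and 69. These names are best hits in other species and do not show the tissue that the tags came from. The part of these genes in the results was not tested.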

How the data were processed

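RNA from leaves of 3 groups of plantlets (CON, CS and FS, 1 library each) had been made into DeepSAGE tags. The authors trimmed adaptors, dropped reads that were empty or of poor quality and tags seen fewer than 2 times or not 21 bases long, and aligned the clean tags that remained to reference sequences, with 1 mismatch allowed. The study's text names gene sequences of other plants as this reference, while the files give unigene numbers, and which sequences these are is not given in the sources used here. Bowtie 0.12.3 is named in the submitters' processing notes. The deposited counts are clean tags per distinct tag or per gene. The deposited TPM values (scaled to the clean tags of a library) served only to derive library totals. The deposited log2 ratios, P-values and false discovery rates hold the authors' own comparisons and were not used. Only tags past their threshold were listed, so a count in the third library was taken from another table where that table listed the tag.

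Sense tags of exactly 1 gene were kept, and 124, 148 and 130 sense tags of several genes were left out. All tags of the genes described were perfect matches, no site held more than 1 listed tag, and no count differed between tables. The files rank CATG sites from the 3′ end. The plan had taken larger numbers as more 3′, which the files' header corrected. The 2 leading sites were compared by Fisher's exact test (2-sided), adjusted by the Benjamini-Hochberg method over genes of both strands. A call needed an adjusted p of at most 0.001 and a log2 odds ratio of at least 1 in size. A log2 odds ratio has an exact 95% interval where no count of the pair is 0. A 0 was set to 3 tags in odds ratios, and such a value depends on this choice. It can even set the sign: Unigene26249_All had 25 and 0 tags in CS and 1008 and 14 in FS. Its log2 odds ratio came out at 3.11, and it was not called. The distance between sites was read from the overlap of their tags. With 1 library per condition no model with replicates could be fitted. The test was checked on simulated counts with counting error only. That check had no listing threshold and no spread between plants, so it does not cover either. The tools were scipy 1.17.1, pandas 2.3.3, numpy 2.4.6 and matplotlib 3.10.9 under Python 3.11.15.

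The members and lists were chosen with earlier results of these data known. Named genes are the 8 per direction and comparison with the largest change of share among called genes with a named protein and at least 100 tags in each library, the largest called change in each keyword list with at least 20 tags, genes called in all 3 comparisons (there were 0), and the called gene with the most tags. Others are said to be chosen after their values were seen, or stand as examples of genes not called. Names are best hits in other species, and 132 of 647 genes had a hit that names a protein. No genome was used, so positions on chromosomes are not given. Alternatives covered the sites compared, filters, thresholds, zeros and near-identical tags.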

Additional observations from a re-analysis of the deposited data

How the results depend on the processing

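The counts of 27, 91 and 93 called genes stayed within 1.5 times under the most 3′ listed site against all others (29, 91 and 91), at least 30 tags at both sites (26, 83 and 84), a log2 odds ratio of at least 2 (22, 83 and 74), Bonferroni adjustment (21, 80 and 80), leaving out genes with a 0 (26, 77 and 81) and leaving out tags 1 base apart (27, 91 and 92). Under a log2 odds ratio of at least 2 the counts with FS could not drop far. Genes with opposed sites exceed that limit by construction, and they supplied 69 of the calls in CON vs FS and 64 in CS vs FS. Using only the most abundant tag of a site changed nothing, since no site held 2. Opposed direction alone gave 13 genes in CON vs CS. Of the alternatives added after the data were seen, pairs without overlap gave 26, 67 and 65 called genes (67 in place of 68 since p was adjusted anew), and in CS vs FS 36.9% of these, in place of 49.5%, moved to the more 3′ site. An assumed coefficient of variation of 0.2 left 6 calls in CON vs CS and 55 in CS vs FS, and one of 0.4 left 0 in CON vs CS, 5 in CON vs FS and 5 in CS vs FS. The log2 odds ratios of named genes kept their direction and their call in all 90 values. These came from 0.5 added to each count, the most abundant tag and the most 3′ site against the others. The most abundant tag could change no value, and in a gene with 2 listed sites the most 3′ site against the others is the same test. Named genes were also picked for large called changes, so much of this outcome was fixed beforehand. A minimum distance of 50 bases was not run, since the files give ranks of sites and not bases. No paired analysis was possible because each condition has 1 library. Sites under the authors' threshold are not in these tables, and a median of 96.3%, 95.9% and 95.3% of a member's tags in the gene tables came from its listed sites. Members with few tags could not pass the test at this depth.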
